A study of Saccharomyces cerevisiae with 10 samples.

Results

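The proteasome of budding yeast and its transcriptional regulator RPN4 were followed through a heat shock. The members were chosen by their systematic names: 31 genes for subunits of the regulatory particle and the core particle, and RPN4 (YDL020C). Of these 32 genes, 31 had a row among the 5983 rows of the value table, and 30 had the values needed for a test among 5744 genes tested. RPN2 (YIL075C), a scaffold of the regulatory particle, was not analysed here. RPN3 (YER021W) had no value on the 0 min array of the KIN82 deletion and was not tested, RPT3 had no value on the 5 min array of the deletion, and RPN1 had none on the 15 min array of DBY8778.

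Total RNA came from a Saccharomyces cerevisiae strain with a deletion of KIN82, a protein kinase gene, at 0, 5, 15, 30 and 60 min of heat shock, and from strain DBY8778 at the same times. DBY8778 is treated as the wild type, since the descriptions speak of a wild type and a kin82 mutant and name no other strain. Each of the 10 arrays set 1 sample against a reference RNA of unstated makeup, so each strain and time has 1 array. The temperature, the medium, the rest of the genotype, and whether the times came from 1 culture are likewise unstated. The titles mark the deletion arrays at 0 and 60 min as repeats and number the heat shock of DBY8778 as its second. In the deletion, every change at 5, 15 or 30 min against 0 min thus sets an array without this mark against a repeat. The step from 30 to 60 min in that strain does so as well. An offset of the repeat arrays would enter these changes, and its size was not tested. Strain and time course cannot be told apart. P-values measure the spread between these samples, which may be partly technical.

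The arrays held between 5844 and 5949 values each, and their medians as deposited lay between -0.15 and 0.03. Values are log2 ratios over the reference after centring each array on its median. The base of the logarithm and the direction of the ratio were not stated. Sample over reference is the likely direction, because 27 of 28 Hsf1-dependent chaperones in the deletion (96.4%) and 25 of 27 in DBY8778 (92.6%) were higher at 15 min than at 0 min; a reading in the other direction would turn every sign below. The spread of all genes was wider in the middle of the time course: the median absolute deviation of an array lay between 0.52 and 0.87 in the deletion and between 0.54 and 0.86 in DBY8778, with the highest value of each strain at 15 min. A log ratio is no level, and ratios of different genes do not rank their transcripts. In RNA of whole cultures, a change in the number of cells that express a gene and a change in RNA per cell cannot be told apart.

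The proteasome degrades proteins tagged with ubiquitin. Its core particle is a barrel of stacked rings, with alpha subunits forming the gates and beta subunits holding the proteolytic sites inside. The regulatory particle caps the barrel: its base unfolds substrates with a ring of ATPases, and its lid removes ubiquitin. In yeast, Rpn4 is a short-lived transcription factor that activates proteasome genes and is itself degraded by the proteasome, and its gene is a known target of heat shock factor.

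RPN4 rose within the first 5 min of heat shock. Its log2 ratio was 0.56, 2.31, 1.90, 2.15 and 0.65 at 0, 5, 15, 30 and 60 min in the KIN82 deletion. In DBY8778 it was 1.09, 2.13, 2.37, 1.42 and 0.96 at the same times. In both strains the values at 5, 15 and 30 min lay above both 0 min values, while the values at 60 min did not. The highest value came at 5 min in the deletion and at 15 min in DBY8778.

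In limma with Benjamini-Hochberg adjustment over all genes tested, RPN4 was higher at 5 min than at 0 min by 1.39 ± 0.33 (SE) on the log2 scale (adjusted p = 0.0157). At 15 min it was higher by 1.31 ± 0.33 (limma adjusted p = 0.00891). The heat average, the mean of the 4 heated times minus 0 min, was 0.91 ± 0.26 (limma adjusted p = 0.0268), and the F test over the time course passed as well (limma adjusted p = 0.0061). The change at 30 min was 0.95 ± 0.33 and did not pass (limma adjusted p = 0.0769), and at 60 min the change was -0.02 ± 0.33 (limma adjusted p = 0.987).

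The rise of RPN4 depends on how the arrays are scaled and on single arrays. With quantile normalization the changes at 5 and 15 min were 0.83 and 0.50, and with arrays scaled to the same median absolute deviation they were 0.93 and 0.68; none of these passed. The heat average was 0.51 and 0.57 under these scalings and did not pass. With time alone in the model, the 5 min change (limma adjusted p = 0.0922) and the heat average (limma adjusted p = 0.0778) did not pass. Leaving out both arrays titled repeat keeps 1 array at 0 min. The changes at 5 and 15 min were then 1.05 and 0.97, and the heat average was 0.62. Without the deletion 0 min array the heat average was 0.62 (limma adjusted p = 0.44), without the DBY8778 0 min array it was 1.19 (0.101), and without the DBY8778 60 min array it was 0.87 (0.0644). The 5 min call was also lost without either 0 min array or the deletion 5 min array, at 1.10, 1.67 and 1.22, and the 15 min call without the deletion 0 min array or the DBY8778 15 min array, at 1.03 and 1.07. The 30 min change passed without either 5 min array, at 0.95, and without the DBY8778 30 min array, at 1.46. Over all alternatives the adjusted p of the heat average lay between 0.011 and 0.489.

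At 5, 15 and 30 min the log2 ratio of RPN4 was above those of most genes and of most proteasome subunits. These are ranks of ratios and not of transcripts. At 5 min, 98.4% of the genes on the deletion array and 96.4% of those on the DBY8778 array had a lower log2 ratio than RPN4. At 0 min these shares were 80.4% in the deletion and 95.9% in DBY8778. In the deletion 14 of 29 subunits had a log2 ratio above that of RPN4 at 0 min, 0 at 5 and 15 min, 2 of 30 at 30 min and 16 of 30 at 60 min. In DBY8778 these counts were 1 of 30 at 0 min, 0 at 5 and 15 min, 6 of 30 at 30 min and 6 of 30 at 60 min. RPN4 thus stood above nearly all subunits on the DBY8778 0 min array as well. On that array all 27 measured Hsf1-dependent chaperones were above the array median, with a median of 1.69. On the 0 min array of the deletion 25 of 28 were above it, with a median of 0.71. Every heat change within DBY8778 is set against that 0 min array, and the cause of its high chaperone ratios was not tested.

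**Figure D1:**
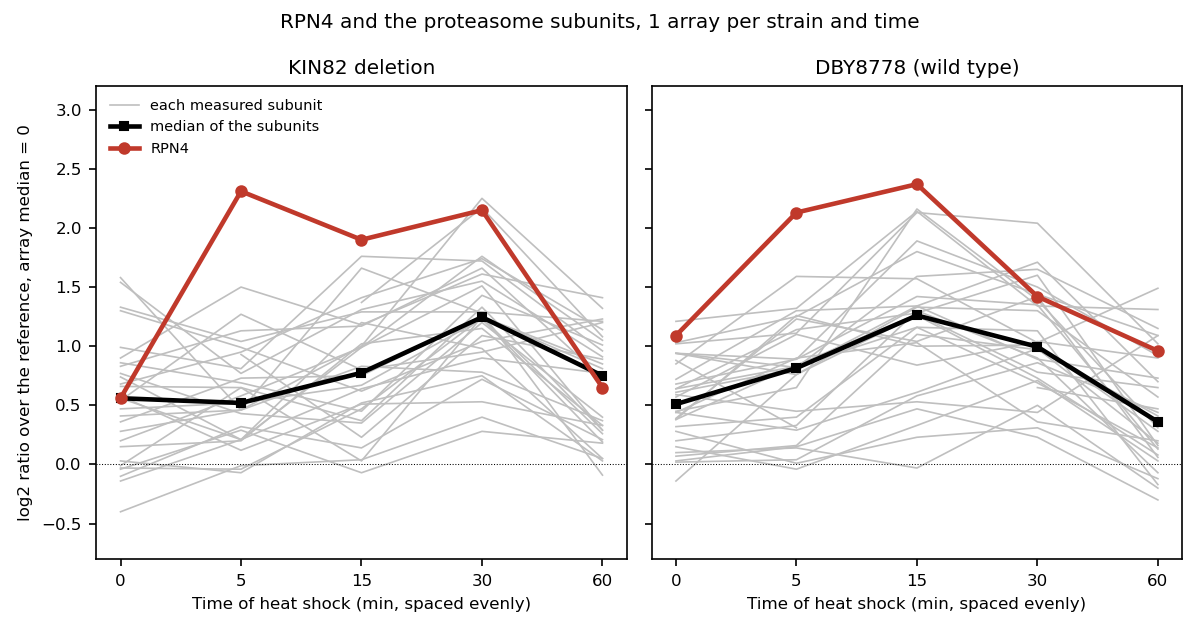
Log2 ratio over the reference (vertical axis) against time of heat shock in minutes (horizontal axis, times spaced evenly) for RPN4 (red), each measured subunit (grey) and the subunit median (black), in the KIN82 deletion (left) and DBY8778 (right), with 1 array per point. RPN4 is above 2 at 5 min in both strains, while the subunit median is highest at 30 min in the deletion (1.25) and at 15 min in DBY8778 (1.26).

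Most subunits had their highest value at 15 or 30 min. The median log2 ratio of the measured subunits was 0.56, 0.52, 0.78, 1.25 and 0.75 at 0, 5, 15, 30 and 60 min in the KIN82 deletion. In DBY8778 it was 0.51, 0.81, 1.26, 0.99 and 0.36. Most subunits were above the array median on every array: at 0 min 23 of 29 in the deletion and 29 of 30 in DBY8778, and at 30 min all 30 in both strains. Of the 27 subunits with a value on every array, 18 were highest at 30 min in the deletion (66.7%, against 17.1% of all complete genes). In DBY8778, 15 were highest at 15 min (55.6%, against 21.9%) and 9 at 30 min (33.3%, against 13.8%).

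At 30 min against 0 min, 5 of 29 tested subunits rose: RPT2, RPN7, PRE6, RPT4 and PRE7. Over all genes 4.32% were called higher and 8.14% lower at this time. The median change of the subunits was 0.60, against 0.03 over all genes. It was positive for 29 of 29 subunits, against 52.1% of all genes. The subunits were read on the same arrays and are not replicates of one another. Both 30 min arrays lay above both 0 min arrays for 20 of 29 subunits (69.0%) and below them for none, against 25.0% above and 24.1% below over all genes. The other 24 did not pass, and 14 of the 29 had an unadjusted p under 0.05 (48.3%, against 24.8% of all genes). The count was 0 without the 0 or the 60 min array of either strain or the deletion 30 min array, and 1 without the DBY8778 30 min array. It was 1 with quantile normalization or equal scaling, where the median change was 0.50 and 0.49, and 2 with genes of at least 8 values or with a prior trend.

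The earlier times gave fewer calls. At 5 min, 0 of 29 subunits were called by limma, against 3.75% of all genes called higher and 4.77% lower. The median change was 0.12, and 1 subunit had an unadjusted p under 0.05 (3.45%, against 22.6% of all genes). At 15 min, RPN7 alone rose among the 29 subunits, against 9.51% of all genes called higher and 14.1% lower. An unadjusted p under 0.05 was reached by 7 subunits (24.1%, against 34.7% of all genes). The median change at 15 min was 0.38, with 27 of 29 positive (93.1%, against 53.2% of all genes). This median was 0.11 with quantile normalization and 0.16 with equal scaling, where no subunit was called. The number called at 15 min ranged from 0 without either 0 min array to 4 without the deletion 15 min array, and it was 3 without either 5 min array and 2 without either 60 min array. Both 15 min arrays lay above both 0 min arrays for 13 of 28 subunits (46.4%, against 30.1% of all genes).

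At 60 min the median change was 0.00, and 0 of 29 were called by limma, with 0 at an unadjusted p under 0.05. Over all genes 0.487% were called higher and 0.905% lower, and 15.8% had an unadjusted p under 0.05. From 30 to 60 min the median change was -0.68, with 28 of 29 negative. Positive changes made up 3.45% of the subunits, against 48.7% of all genes. An unadjusted p under 0.05 was reached by 37.9% of the subunits, against 17.6% of all genes. Here too 0 subunits were called by limma, with 11 at an unadjusted p under 0.05 and the lowest adjusted p at PRE6 (-1.13 ± 0.31, 0.0568, 0.0225 to 0.418 over alternatives), while 2.39% of all genes were called higher and 1.25% lower. Without either 5 min array, 2 subunits were called.

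The single steps and the averages gave few calls for the subunits. From 5 to 15 min the median change was 0.34 and 0 of 29 were called by limma (3 at an unadjusted p under 0.05, and 1 called without the deletion 15 min array), against 1.9% of all genes called higher and 4.74% lower. From 15 to 30 min it was 0.09, with 0 called by limma and 0 at an unadjusted p under 0.05, against 0.976% higher and 0.523% lower; without the DBY8778 15 min array the median was 0.42. In the heat average the median was 0.29, with 0 called by limma and 3 at an unadjusted p under 0.05, against 5.76% of all genes higher and 10.3% lower; SCL1, PRE9 and RPN7 were each called in at least 1 alternative, and up to 3 subunits without the deletion 15 min array. With quantile normalization the median changes from 5 to 15 min, 15 to 30 min and 30 to 60 min were 0.17, 0.30 and -0.42, and that of the heat average was 0.16. The F test called RPN7 (limma adjusted p = 0.0328) and PRE6 (limma adjusted p = 0.043), or 2 of 29 subunits. It called 23.4% of all genes, so the subunits' share of calls was not above that of all genes. At an unadjusted p under 0.05 the subunits' share was 41.4% (12 of 29), against 35.9% of all genes. From 5 to 15 min this share was 10.3% against 20.6%, and from 15 to 30 min 0.0% against 16.2%. In the heat average it was 10.3% against 28.3%. The F test called 0 subunits without either 0 min array or the deletion 30 min array, 4 and 5 without the 5 min array of the deletion and of DBY8778, and 1 without any of the DBY8778 15, 30 and 60 min arrays or the deletion 60 min array.

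**Figure D2:**
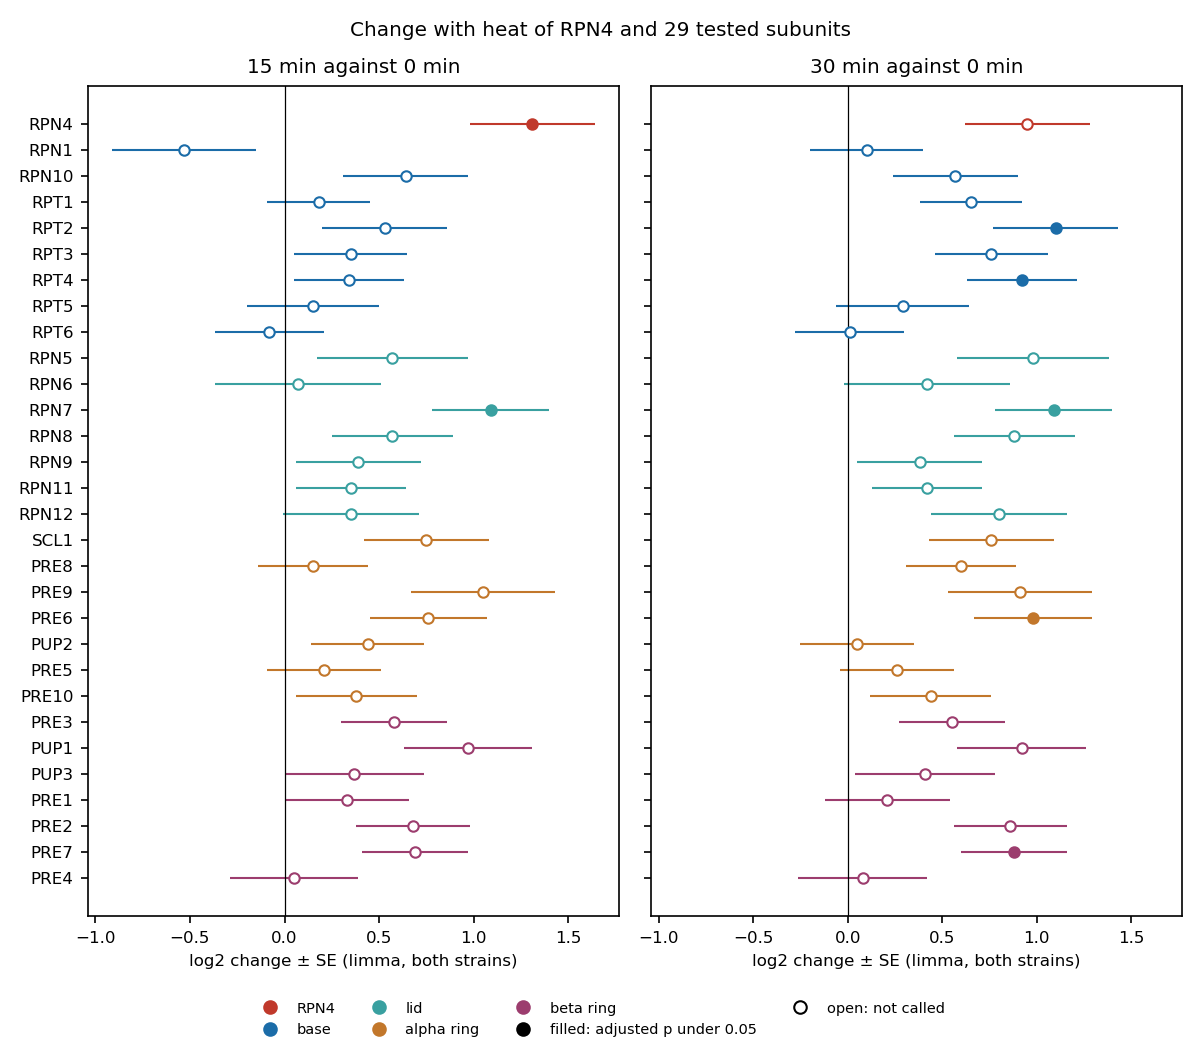
Log2 change ± SE from limma (horizontal axis) for RPN4 and the 29 tested subunits (rows, coloured by subcomplex) at 15 min (left) and 30 min (right) against 0 min, both strains together; filled points passed the adjusted p threshold of 0.05. At 30 min all 29 subunits lie above 0 and 5 are filled, and at 15 min RPN7 and RPN4 are filled.

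The base of the regulatory particle holds the scaffolds RPN1 (YHR027C) and RPN2, the ubiquitin receptor RPN10 (YHR200W), and the ATPases RPT1 (YKL145W), RPT2 (YDL007W), RPT3 (YDR394W), RPT4 (YOR259C), RPT5 (YOR117W) and RPT6 (YGL048C), which form the unfolding ring. RPT2 had the highest heat average of the base, 0.50 ± 0.26. In log2 ratio it was at 0.56, 0.21, 0.99, 1.76 and 1.05 at 0 to 60 min in the KIN82 deletion, and 0.72, 1.30, 1.34, 1.71 and 0.70 in DBY8778. The 2 values at 30 min were the highest of each strain, and RPT2 rose at 30 min by 1.10 ± 0.33 (limma adjusted p = 0.0421, 0.0118 to 0.304 over alternatives). RPT4 rose at 30 min by 0.92 ± 0.29 (limma adjusted p = 0.0479, range 0.0364 to 0.453).

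RPN1, which binds ubiquitin-carrying shuttle proteins, had the lowest heat average of all subunits, -0.32 ± 0.24 (limma adjusted p = 0.437). The log2 ratios were 0.77, 0.43, 0.35, 1.20 and 0.40 at 0 to 60 min in the deletion. In DBY8778 it was 0.88, 0.31, 0.65 and 0.47 at 0, 5, 30 and 60 min. The 30 min value of the deletion was thus the only heated value above the 0 min value of its strain. RPT6 had a change of 0.01 ± 0.29 at 30 min (limma adjusted p = 0.994) and its highest value in DBY8778 at 60 min (1.09). The other base subunits had heat averages of 0.09 (RPT5), 0.13 (RPT1), 0.29 (RPN10), 0.31 (RPT4) and 0.45 (RPT3), none of which passed. For RPN10 the log2 ratio at 15 min was 1.20 in the deletion and 0.23 in DBY8778, but its strain-dependent heat response, 0.93 ± 0.51, did not pass (limma adjusted p = 0.999).

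The lid is built from scaffold proteins with a shared fold, RPN3, RPN5 (YDL147W), RPN6 (YDL097C), RPN7 (YPR108W), RPN9 (YDR427W) and RPN12 (YFR052W), and from the deubiquitinase RPN11 (YFR004W) with its partner RPN8 (YOR261C). RPN7 had the highest heat average of all subunits, 0.74 ± 0.25 (limma adjusted p = 0.0528). Across the time course it was at 0.20, 0.58, 0.99, 1.51 and 0.29 at 0 to 60 min in the KIN82 deletion, and -0.14, 0.76, 1.26, 0.73 and 0.08 in DBY8778. Every heated value was above the 0 min value of its strain. RPN7 rose by 1.09 ± 0.31 at 15 min (limma adjusted p = 0.0179) and by 1.09 ± 0.31 at 30 min (limma adjusted p = 0.0317), and each of these changes passed in 13 of 20 alternatives. The 15 min call was lost without either 0 min array or the DBY8778 15 min array, at 1.19 without the deletion 0 min array, 0.99 without the DBY8778 0 min array and 0.81 without the DBY8778 15 min array. The 30 min change was 0.71 without the deletion 30 min array (limma adjusted p = 0.372, 0.016 to 0.372 over alternatives), and its call was also lost without the 0 min array of the deletion or of DBY8778, at 1.19 and 0.99, and without either 60 min array, at 1.09.

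RPN9 had the lowest heat average of the lid, 0.06 ± 0.26. Its log2 ratios were 0.58, 0.12, 0.51, 0.53 and 0.33 at 0 to 60 min in the deletion and 0.32, 0.40, 1.16, 1.13 and -0.17 in DBY8778. In the deletion no heated value exceeded the 0 min value, whereas in DBY8778 the values at 15 and 30 min did so by 0.84 and 0.81. The other tested lid subunits had heat averages of 0.12 (RPN6), 0.29 (RPN12), 0.30 (RPN11), 0.41 (RPN8) and 0.55 (RPN5), none of which passed. RPN6, whose gene product joins the lid to the core, ranged from 0.46 to 2.25 in the deletion and from 0.85 to 1.59 in DBY8778. The untested RPN3 was between 0.23 and 1.09 at the heated times in the deletion and between 0.61 and 1.34 over all times in DBY8778.

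The alpha ring is made of SCL1 (YGL011C), PRE8 (YML092C), PRE9 (YGR135W), PRE6 (YOL038W), PUP2 (YGR253C), PRE5 (YMR314W) and PRE10 (YOR362C). PRE9, whose gene is dispensable for growth in yeast, had the highest heat average of the ring, 0.61 ± 0.30 (limma adjusted p = 0.199). Its log2 ratio was 0.36, 0.73, 0.75, 1.25 and 0.85 at 0 to 60 min in the KIN82 deletion, and 0.45, 0.65, 2.16, 1.39 and 0.31 in DBY8778. All heated values of the deletion were above its 0 min value, and the 15 min value of DBY8778 was the highest of any subunit on that array. PRE6 was the ring's only subunit called at 30 min, with a rise of 0.98 ± 0.31 (limma adjusted p = 0.0497, 0.0258 to 0.251 over alternatives).

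PUP2 had the lowest heat average of the ring, 0.10 ± 0.24. The arrays gave log2 ratios of 1.33, 1.04, 1.29, 1.29 and 1.21 at 0 to 60 min in the deletion and 1.21, 1.32, 2.14, 1.34 and 1.31 in DBY8778. Apart from the 15 min array of DBY8778 these values lay between 1.04 and 1.34. The other heat averages were 0.16 (PRE5), 0.26 (PRE8), 0.26 (PRE10), 0.47 (PRE6) and 0.57 (SCL1), none of which passed. PRE5 and PRE8 had the lowest ratios of the ring, with no value above 0.50 on any array.

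The beta ring carries the proteolytic sites on PRE3 (YJL001W, caspase-like), PUP1 (YOR157C, trypsin-like) and PRE2 (YPR103W, chymotrypsin-like), beside PUP3 (YER094C), PRE1 (YER012W), PRE7 (YBL041W) and PRE4 (YFR050C). PUP1 had the highest heat average, 0.50 ± 0.27 (limma adjusted p = 0.246). Its log2 ratio was 0.28, 0.46, 1.66, 1.28 and -0.09 at 0 to 60 min in the KIN82 deletion, and 0.02, 0.04, 0.58, 0.86 and 0.44 in DBY8778. In both strains the values at 15 and 30 min were the highest. PRE7 was the ring's only subunit called at 30 min, with a rise of 0.88 ± 0.28 (limma adjusted p = 0.0483, 0.0397 to 0.406 over alternatives).

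PRE4 had the lowest heat average of the beta ring, 0.02 ± 0.27. In log2 ratio PRE4 was at 1.30, 0.99, 0.62, 1.04 and 1.23 at 0 to 60 min in the deletion and 1.03, 1.25, 1.80, 1.44 and 1.09 in DBY8778. On these single arrays every heated value of PRE4 was below the 0 min value in the deletion and above it in DBY8778. The other heat averages were 0.05 (PRE1), 0.19 (PRE3), 0.26 (PUP3), 0.46 (PRE2) and 0.49 (PRE7), none of which passed. Of the 3 proteolytic subunits, PRE3 and PUP1 had their highest value at 15 min and PRE2 at 30 min in the deletion, while PRE3 and PRE2 had it at 15 min and PUP1 at 30 min in DBY8778.

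By subcomplex, the median change at 30 min was 0.61 in the base, 0.80 in the lid, 0.60 in the alpha ring and 0.55 in the beta ring. At 15 min it was 0.26, 0.39, 0.44 and 0.58 in the same order. Differences between subcomplexes were not tested.

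**Figure D3:**
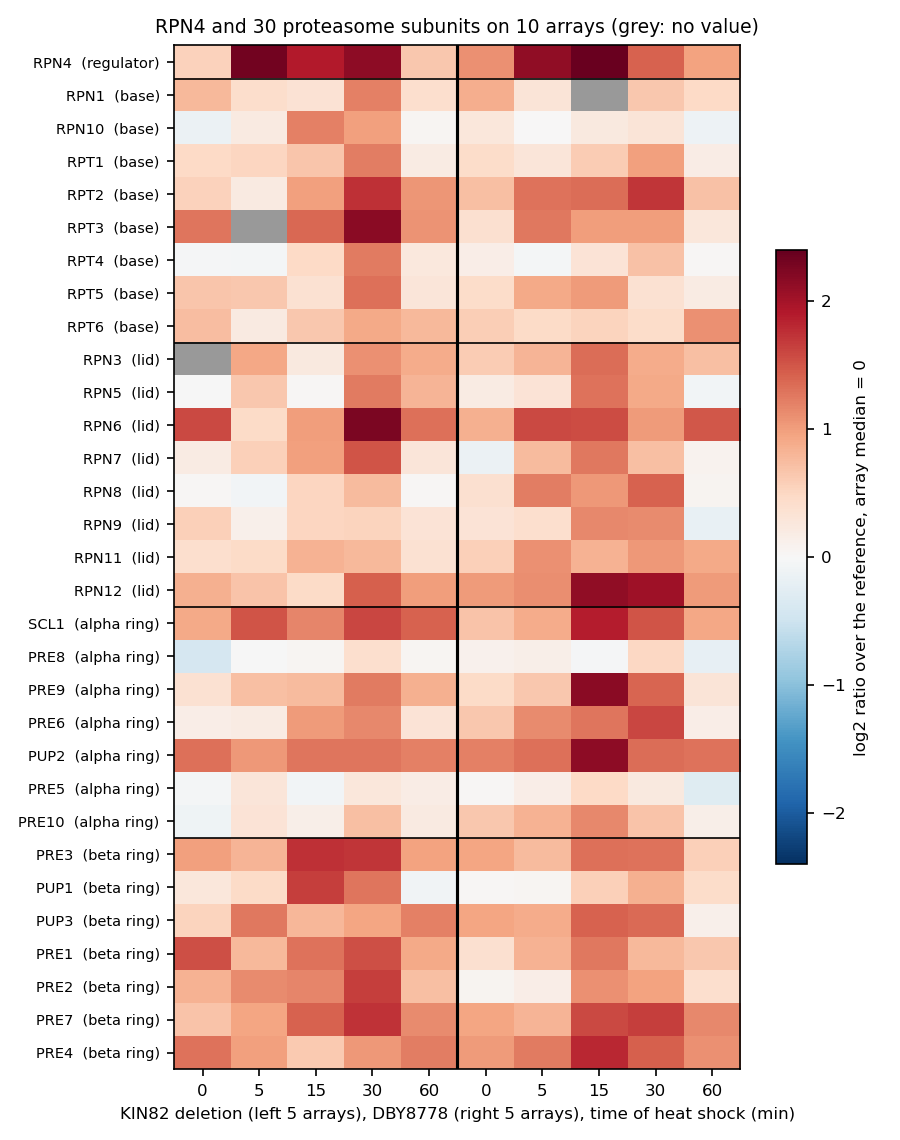
Log2 ratio over the reference (colour) of RPN4 and the 30 measured subunits (rows, by subcomplex) on the 10 arrays (columns, the 5 KIN82 deletion arrays left of the 5 DBY8778 arrays, each in order of time in minutes); grey cells have no value. The 30 min columns are red throughout in both strains, and the row of RPN4 is darker at 5, 15 and 30 min than at 0 and 60 min.

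Between the strains, 1 of 29 subunits was called over all times: RPT3, an ATPase of the base, was higher in the KIN82 deletion by 0.81 ± 0.21 (limma adjusted p = 0.0259). Its log2 ratios were 1.28, 1.37, 2.17 and 1.08 at 0, 15, 30 and 60 min in the deletion. In DBY8778 it was 0.38, 1.26, 1.0, 1.01 and 0.28 at 0, 5, 15, 30 and 60 min. The deletion was higher at each of the 4 times with a pair of values. The fit used these 4 pairs and the remaining DBY8778 array. Over all genes 6.6% were called higher and 5.38% lower in the deletion, so 1 of 29 is no more than the background. An unadjusted p under 0.05 was reached by 5 of the 29 (17.2%, against 27.7% of all genes). The call of RPT3 was lost without either array of 0, 30 or 60 min, at 0.78, 0.69 and 0.81 whichever strain's array of that time was left out, and its adjusted p ranged from 0.0179 to 0.321 over the alternatives. Without either 15 min array 2 subunits were called.

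The other large strain differences did not pass. PRE2, the chymotrypsin-like subunit, had log2 ratios of 0.83, 1.13, 1.17, 1.66 and 0.73 at 0 to 60 min in the deletion and 0.07, 0.16, 1.10, 0.97 and 0.41 in DBY8778. It was higher in the deletion at each time, by 0.56 ± 0.19 in the fit (limma adjusted p = 0.0675, from 0.0449 to 0.375 over the alternatives). RPN8 had 0.03, -0.07, 0.52, 0.75 and 0.03 in the deletion and 0.39, 1.23, 1.04, 1.42 and 0.06 in DBY8778, a difference of -0.58 ± 0.20 (limma adjusted p = 0.0752). RPN12 differed by -0.58 ± 0.23 (limma adjusted p = 0.115), and its largest gap was at 15 min, with 0.45 in the deletion and 2.13 in DBY8778. Both lid subunits were lower in the deletion at all 5 times.

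PRE10, of the alpha ring, had -0.10, 0.32, 0.14, 0.72 and 0.21 at 0 to 60 min in the deletion and 0.64, 0.83, 1.16, 0.69 and 0.14 in DBY8778. It was lower in the deletion at 0, 5 and 15 min and close to DBY8778 after that, a difference of -0.44 ± 0.20 (limma adjusted p = 0.177). RPN4 itself differed by -0.08 ± 0.21 (limma adjusted p = 0.837). It was lower in the deletion at 0, 15 and 60 min and higher at 5 and 30 min. The remaining subunits had strain differences between -0.40 (PRE6) and 0.43 (PRE1), none of which passed.

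**Figure D4:**
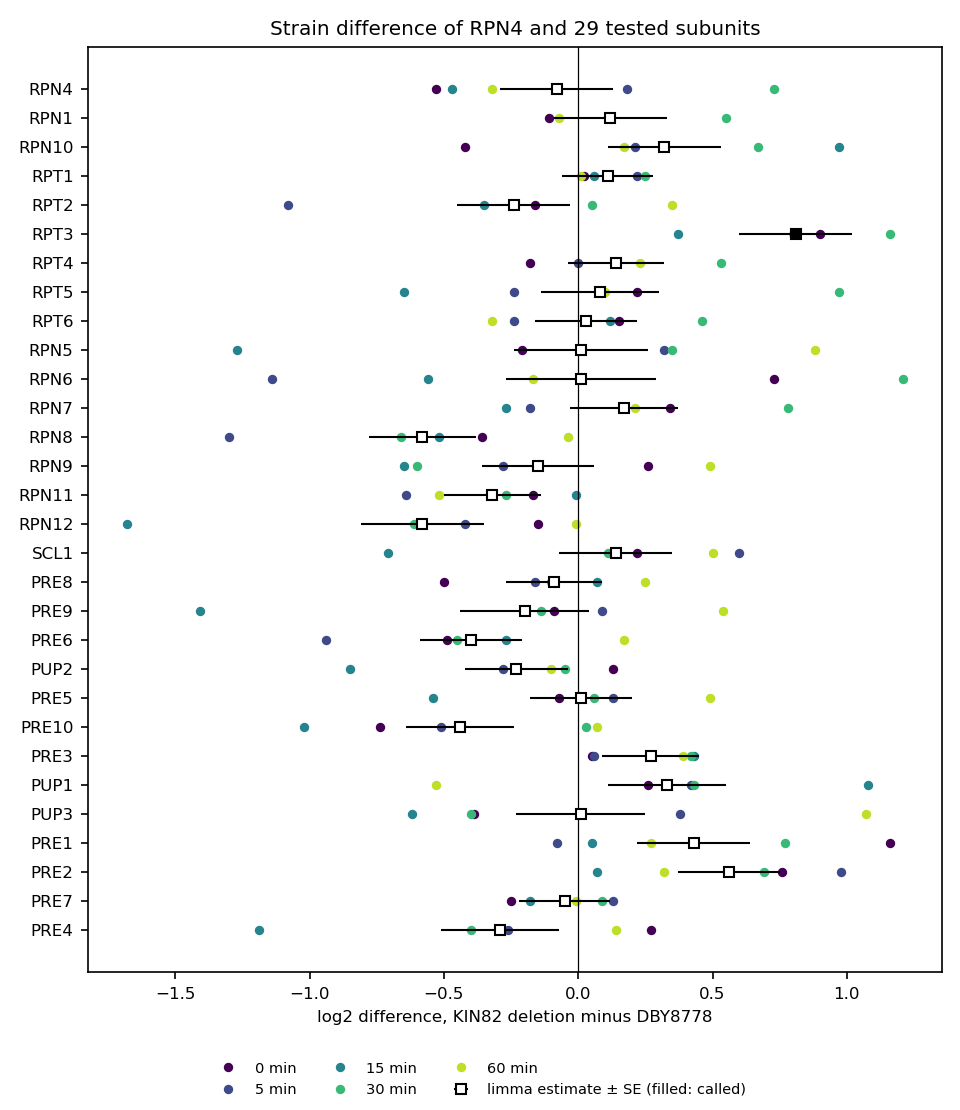
Log2 difference of the KIN82 deletion minus DBY8778 (horizontal axis) for RPN4 and the 29 tested subunits (rows): coloured points are single times with 1 array per strain, squares are limma estimates ± SE over all times, and the filled square passed the adjusted p threshold of 0.05. Only RPT3 is filled, at 0.81, and the points of a row often lie on both sides of 0.

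The strain differences at single times varied in sign. The median difference of the subunits, deletion minus DBY8778, was -0.07, -0.08, -0.35, 0.16 and 0.17 at 0, 5, 15, 30 and 60 min. At 15 min all 8 lid subunits were lower in the deletion, with a median of -0.60, as were 6 of 7 in the alpha ring, with a median of -0.71. In the base 5 of 7 were higher in the deletion at 15 min, with a median of 0.12, and all 8 with a row at 30 min, with a median of 0.54. Of all genes 51.9% were higher in the deletion at 15 min and 49.8% at 30 min. The beta ring had a median of 0.26, 0.13, 0.05, 0.42 and 0.27 at 0 to 60 min, above 0 at all 5 times. These differences rest on 1 pair of arrays at each time and were not tested time by time. The test of a strain-dependent heat response called 0 of 29 subunits in limma, with 0 at an unadjusted p under 0.05, against 0.0% and 2.27% of all genes. It gave 0.57 ± 0.54 for RPN4 (limma adjusted p = 0.999), so that the mean heat change of RPN4, 1.19 in the deletion and 0.62 in DBY8778, differed by about its standard error.

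Among 13 genes for proteins that bind the proteasome without being counted here as subunits, 3 rose in the heat average (23.1%, against 5.76% of all genes). TMC1, a zinc finger protein linked to metal stress, rose by 1.43 ± 0.22 (limma adjusted p = 0.000543). CUZ1, a related zinc finger protein that binds Cdc48 and the proteasome, rose by 1.14 ± 0.23 (limma adjusted p = 0.00294), and the ubiquitin shuttle DDI1 by 0.93 ± 0.24 (limma adjusted p = 0.0141). Their median was 0.37, against 0.03 over all genes. BLM10, an alternative cap of the core particle, had the lowest change, -0.01 ± 0.24. The heat average of TMC1 was 0.85 with quantile normalization and did not pass (limma adjusted p = 0.136, 8.1e-05 to 0.136 over alternatives). CUZ1 and DDI1 lost their calls without the 0 min array of the deletion, at 1.01 and 1.12, or of DBY8778, at 1.26 and 0.75.

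TMC1 also rose at 5 min, by 1.65 ± 0.28 (limma adjusted p = 0.00215, 0.00204 to 0.336 over alternatives), but this was 0.87 with quantile normalization and 1.11 with equal scaling, and neither passed. Its log2 ratio was 0.06, 2.02, 2.60, 1.52 and 0.64 at 0 to 60 min in the KIN82 deletion and 1.60, 2.94, 3.71, 2.67 and 2.01 in DBY8778. The deletion was lower at every time, and the difference was -1.21 ± 0.18 (limma adjusted p = 0.0013). CUZ1 had -0.58, -0.29, 1.58, 1.01 and 0.44 in the deletion and 0.29, 0.58, 1.73, 1.67 and 1.22 in DBY8778, a difference of -0.67 ± 0.18 (limma adjusted p = 0.0312, 0.0208 to 0.517 over alternatives). The CUZ1 call was lost without any single array of 0, 5, 30 or 60 min, at values from -0.67 to -0.61.

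ECM29, which tethers the regulatory particle to the core, had -0.30, -0.67, 0.57, 1.13 and 0.40 at 0 to 60 min in the deletion and 0.59, 0.76, 2.10, 1.74 and 0.58 in DBY8778. It differed between the strains by -0.93 ± 0.21 (limma adjusted p = 0.0145), and no single array took this call away, but with the 0 and 60 min pairs alone it was -0.54 and did not pass (limma adjusted p = 0.375, 0.00942 to 0.375 over alternatives). The largest difference in the other direction was that of UBP6, the ubiquitin protease of the base, at 0.33 ± 0.20, which did not pass. In all, 3 of 13 associated genes were called lower in the deletion (23.1%, against 5.38% of all genes), and 0 higher (against 6.6%). An unadjusted p under 0.05 was reached by 3 (23.1%, against 27.7% of all genes). Of 27 tested Hsf1-dependent chaperones, 19 were called lower in the deletion and 0 higher, with a median difference of -0.87. At 15 min 6 of the 13 associated genes rose (46.2%, against 9.51% of all genes). They were TMC1, CUZ1, ECM29, DDI1, the ubiquitin ligase HUL5 and FUB1, a relative of a mammalian proteasome inhibitor. With quantile normalization CUZ1 and DDI1 remained called, while TMC1 was at 1.10 (against 2.33 ± 0.28), ECM29 at 0.76, HUL5 at 0.78 and FUB1 at 0.52, none of which passed. HUL5 (0.87 ± 0.30, limma adjusted p = 0.0473) and FUB1 (0.84 ± 0.28, limma adjusted p = 0.0399) lost this call without any single array of 0, 15 or 60 min, FUB1 also without either 30 min array, and ECM29 without either 0 min array or the DBY8778 15 min array, at 1.21, 1.16 and 0.81.

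Of 9 genes for proteasome assembly chaperones, 8 were tested and 0 were called by limma in the heat average or between the strains, with 1 and 0 at an unadjusted p under 0.05. Over all genes 5.76% were called higher and 10.3% lower in the heat average, and 6.6% and 5.38% between the strains. An unadjusted p under 0.05 was reached by 28.3% of all genes in the heat average and 27.7% between the strains. NAS6, a chaperone of the base, had the highest heat average, 0.57 ± 0.26, and UMP1, the maturation factor of the core particle, the lowest, -0.25 ± 0.23. At 15 min NAS6 alone rose, by 1.33 ± 0.32 (limma adjusted p = 0.00656), against 9.51% of all genes called higher. Its log2 ratio at 15 min was 1.68 in the KIN82 deletion and 2.29 in DBY8778, against 0.58 and 0.72 at 0 min in the same strains. With quantile normalization the change was 0.67, and without either 0 min array or the DBY8778 15 min array it was 1.30, 1.37 and 1.01 and did not pass (range of the adjusted p over alternatives 0.00244 to 0.25). Between the strains the assembly genes lay between -0.36 ± 0.19 (PBA1) and 0.02 ± 0.18 (ADD66).

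Of 7 genes that control RPN4 or the Rpn4 protein, 1 was called in the heat average, against 5.76% of all genes called higher and 10.3% lower. HSF1, the heat shock factor, fell in the heat average by 1.27 ± 0.32 on the log2 scale (limma adjusted p = 0.0113). This rests on the deletion 0 min array. HSF1 had 0.92, -0.86, -1.35, -1.15 and -0.75 at 0 to 60 min in the KIN82 deletion and -0.41, -0.74, -0.62, -1.92 and -0.73 in DBY8778. Without the deletion 0 min array its heat average was -0.59 (limma adjusted p = 0.502, 0.00216 to 0.565 over alternatives). RAD6, the ubiquitin-conjugating enzyme that acts on Rpn4, had the highest heat average, 0.55 ± 0.26, which did not pass. Its partners UBR2 and MUB1, and the activators PDR1, PDR3 and YAP1, had heat averages from 0.03 (PDR3) to 0.37 (UBR2). Between the strains 0 of the 7 were called by limma, against 6.6% of all genes called higher and 5.38% lower in the deletion. An unadjusted p under 0.05 was reached by 2 of the 7 (28.6%, against 27.7% of all genes). The strain differences lay between -0.47 ± 0.19 (MUB1) and 0.31 ± 0.21 (RAD6).

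The cytosolic chaperonin CCT is another large protein complex. All 8 of its subunit genes had a negative heat average, with a median of -0.46, against 0.29 for the proteasome subunits. Over all genes, 52.2% had a positive heat average. In limma 0 of the 8 were called in the heat average (against 10.3% of all genes called lower), with 2 at an unadjusted p under 0.05 (25.0%, against 28.3% of all genes). At 15 min, when 14.1% of all genes were called lower, CCT7 and CCT5 fell by 1.51 ± 0.37 and 1.12 ± 0.36 on the log2 scale (limma adjusted p = 0.00739 and 0.0327, and up to 0.182 and 0.449 over the alternatives). The difference between the lists was not tested.

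**Figure D5:**
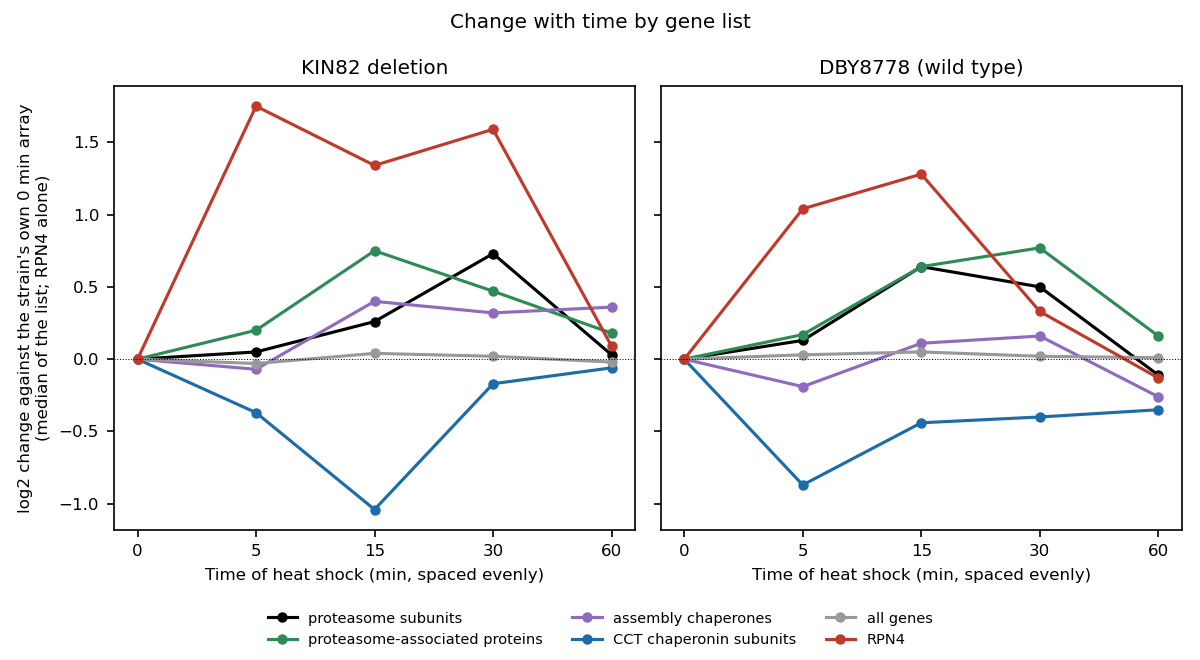
Median log2 change against the 0 min array of the same strain (vertical axis) over time of heat shock in minutes (horizontal axis, times spaced evenly) for the proteasome subunits, the associated proteins, the assembly chaperones, the CCT subunits, all genes and RPN4 alone, in the KIN82 deletion (left) and DBY8778 (right). The subunits reach 0.73 at 30 min in the deletion and 0.64 at 15 min in DBY8778, the CCT subunits stay at or below 0, and RPN4 returns near 0 by 60 min.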

How the data were processed

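The authors deposited 1 table of log ratios, read here as log2, with a column for each of 10 arrays. The scanner, dyes, background correction, normalization, log base and direction are unstated (not given in the sources used here), and intensities of spots were not used here. The number of arrays limits the precision. Symbols came from RefSeq assembly R64 by locus tag. The median of each array was set to 0. Genes having both 0 min values and at least 8 of 10 values (5744) entered lmFit and eBayes of limma 3.58.1 (R 4.3.3), with a factor for time and one for strain: 4 residual degrees of freedom and 11 from the prior (prior SD 0.31). A second model with a strain by heat term tested the interaction. P-values were adjusted by Benjamini-Hochberg over all genes tested, and calls need an adjusted p below 0.05. The residual also holds any strain by time interaction.

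The members and lists were chosen with earlier results of these data known. Sample over reference was adopted where, in each strain, 80% or more of the chaperones were higher at 15 min than at 0 min; that list is therefore no independent evidence of direction. By rule, values on every array are given for RPN4 and, in each subcomplex, for the subunits with the highest and lowest heat average and the largest strain difference. Of the other lists, called genes and the extremes are named. CCT7, CCT5, HUL5 and FUB1, and RPN10, RPN12 and RPT6 beyond their averages, were singled out after their values were seen. The 23 alternatives vary scaling, log base, filter, prior, model and arrays. On simulated data for the heat average (5170 genes, 200 changed), 77.5% of log2 changes of 1 and 100% of changes of 2 were recovered; for the strain difference, 90.5% and 100%. Promoter sequences were not used here, and the planned motif search was not run.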

Additional observations from a re-analysis of the deposited data

Results flagged for a closer look

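For PUP2, a subunit of the alpha ring, and PRE4, a subunit of the beta ring, every heated array was below the 0 min array in the KIN82 deletion and above it in DBY8778. Several of these changes were small for PUP2. They were -0.05 and -0.04 at 15 and 30 min in the deletion. At 5, 30 and 60 min in DBY8778 they were 0.12, 0.14 and 0.1. The mean heat change of PUP2 was -0.12 in the deletion and 0.32 in DBY8778, and that of DBY8778 minus that of the deletion was 0.45. For PRE4 the mean heat change was -0.33 in the deletion and 0.37 in DBY8778, and the same difference was 0.70. The limma test of a strain-dependent heat response, deletion minus DBY8778, gave -0.45 ± 0.51 for PUP2 and -0.70 ± 0.55 for PRE4, both with an adjusted p of 0.999, so neither difference passed. Each rests on 1 array per strain at 0 min. Larger gaps between the strains were found for other subunits, without this pattern at every time. The mean heat change was -0.4 in the deletion and 0.51 in DBY8778 for PRE1, and -0.32 and 0.57 for RPN6. For RPN10 the gap went the other way, with 0.75 in the deletion and -0.18 in DBY8778. The share of all genes with the pattern of PUP2 and PRE4 is not given here.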

How the results depend on the processing

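The subunits called at 30 min, 5 in all, were 1 with quantile normalization or scaling to equal median absolute deviation, 2 with every gene of at least 8 values or a prior trend, 0 with time alone in the model or without both arrays titled repeat, and 0 to 7 when 1 array was left out. At 15 min the count of 1 was 0 with either scaling, time alone or without both repeat arrays, 2 with complete genes or a prior trend, and 0 to 4 with 1 array left out. The F test called 0 instead of 2 with either scaling, time alone or without both repeat arrays, and 0 to 5 with 1 array left out. The heat average called 1 with complete genes, and 0 to 3 with 1 array left out. The strain comparison, with 1 called, gave 2 without centring, 0 with complete genes, strain alone, without both repeat arrays, or with either the 5, 15 and 30 min or the 0 and 60 min pairs, and 0 to 2 with 1 array left out. With 1 array left out, 15 against 5 min gave 0 to 1 and 60 against 30 min 0 to 2.

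RPN4 changed sign where its value was near 0. At 60 min it was 0.02 without centring, 0.01 with quantile normalization, 0.03 with equal scaling, and 0.12 and 0.26 without the deletion 60 min and DBY8778 0 min arrays (-0.31 to 0.26 with 1 array left out). Its strain difference was 0.00 with quantile normalization, 0.15 without both repeat arrays or with the 5, 15 and 30 min pairs, and 0.03 and 0.01 without a 0 min or a 15 min array (-0.28 to 0.03). From 5 to 15 min it was 0.09 and 0.16 without the deletion 5 and 15 min arrays (-0.32 to 0.16), and from 15 to 30 min 0.18 with quantile normalization and 0.15 without the DBY8778 30 min array (-0.86 to 0.15). None of these passed. The causes were not tested.

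Leaving out an array leaves 1 array at its time, which is assumed to vary like the others. Time as a factor already pairs the strains within each time, so no further pairing was fitted. With 1 array per strain and time, the median standard error of a subunit's change at 1 time was 0.32, and 0.25 for the heat average. Read as a natural logarithm, every value would be larger by 1 factor and no call would change.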
